A study of Mus musculus with 70 samples.

Results

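Collagens are the fibres, meshes and cell-surface anchors of the extracellular matrix. The genes described here are the 37 protein-coding genes with a symbol of the form Col, number, a, number among the 50789 identifiers of the count table. They were picked by symbol, at a time when earlier results of these data were known. They comprise 9 fibrillar chains, 4 basement membrane (type IV) chains, 7 FACIT chains (fibril-associated collagens with interrupted triple helices), 5 type VI chains, 2 multiplexins, 4 transmembrane collagens, 4 network-forming or anchoring chains and 2 others, Col26a1 and Col28a1. The remaining 7 collagen genes of the gene annotation lie on chromosome 1 and were not analysed here. They include Col3a1, Col5a2 and the type VI chain Col6a3, and all sums and shares of collagen TPM leave them out.

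RNA from flash-frozen mouse tissue was sequenced after poly-A selection in wild-type (WT) mice and in the knockouts Cic-S-KO and Cic-L-KO. Lung was taken at postnatal day 6, and both brain regions, cortex and cerebellum, came from mice aged 12 weeks. The knockouts are named for the short and the long isoform of Capicua (Cic), a transcriptional repressor, and the WT mice were littermates of both lines pooled into 1 group per tissue, so both knockouts of a tissue were compared with the same WT libraries. Each group held 8 libraries except Cic-S-KO cortex and Cic-S-KO cerebellum, with 7 each, 70 in all, and total counts ran from 17798655 to 35523037 per library. Lung libraries form batch 1 and brain libraries batch 2 in the labels, so tissue type, age and batch cannot be told apart between lung and brain, and the labels state neither the allele structure, the sex of the mice nor whether each library came from a separate animal, so p-values measure the spread between these libraries.

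A collagen is built from 3 alpha chains that fold into a triple helix in the endoplasmic reticulum. Fibrillar collagens are trimmed after secretion, assemble into fibrils and are cross-linked by lysyl oxidases, FACIT collagens sit on fibril surfaces, and type IV chains form the sheet under endothelium and epithelium. Type VI collagen forms beaded filaments near the cell surface. Col2a1 encodes the type II chain, the main fibril collagen of cartilage, and type XI and type IX chains are its partners in cartilage fibrils. In brain, collagens lie mainly in vessel basement membranes, meninges and choroid plexus, and some transmembrane collagens are made by neurons.

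As a check of the labels, Cic itself was measured at gene level, where its isoforms are counted together, so the loss of either isoform cannot be seen. Cic in cortex ranged from 150 to 173 CPM (counts scaled to a common library size with edgeR's TMM factors) in WT, from 237 to 260 in Cic-S-KO and from 269 to 318 in Cic-L-KO. In lung, Cic lay between 128 and 157 CPM in the WT libraries, between 149 and 183 in those of Cic-S-KO and between 131 and 148 in those of Cic-L-KO. Lung, cortex and cerebellum libraries carried their tissue's markers, and 1 lung library, Cic-S-KO replicate 5, held 51.7 TPM (transcript counts per exon length, scaled to a common total) summed over 7 neuron markers against at most 4.19 in any other lung library. Leaving it out changed no count of collagen calls by more than 1.5 times, but in Cic-S-KO lung Col6a1 (adjusted p = 0.0641) and Col26a1 (adjusted p = 0.0889) and in Cic-L-KO lung Col27a1 (adjusted p = 0.0516) were then not called. Col11a1, Col13a1 and Col23a1 then lost their call between the knockouts in lung.

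Collagen levels differed in scale and composition among the WT tissues. Summed over the 37 genes and expressed per exon length as TPM, collagen transcripts reached a median of 5774 TPM in WT lung (range 5317 to 6651), 177 in WT cortex (164 to 221) and 264 in WT cerebellum (231 to 294). In WT lung the order was led by Col4a1 (1527 ± 156 TPM, SD, n = 8) and Col4a2 (1080 ± 117), the main chains of vessel and alveolar basement membrane. They were followed by Col1a1 (967 ± 80.6) and Col1a2 (674 ± 41.5), the type I fibril chains, and by the type VI chain Col6a1 (582 ± 64.6). Col4a2 and Col1a1, neighbours in this order, overlap in mean and SD and were not compared within libraries. The leading 5 lung genes held 82.7% ± 0.785 of collagen TPM in WT lung, 44.7% ± 2.73 in WT cortex and 20.4% ± 1.75 in WT cerebellum.

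WT cortex was led by Col6a1 (33.5 ± 9.08 TPM), Col4a2 (20.5 ± 2.75), Col4a1 (16.7 ± 3.07) and Col25a1 (15.7 ± 2.30), a transmembrane collagen of neurons. Neighbours among the last 3 overlap in mean and SD. Within libraries, however, the ratio of Col4a1 to Col4a2 was 0.741 to 0.909, so Col4a1 was the lower in each WT cortex library. WT cerebellum was led by Col18a1 (51.8 ± 5.96 TPM), whose C-terminal fragment is endostatin, and by the type IX chain Col9a3 (47.2 ± 8.78), and these overlapped. Next came Col9a2 (17.1 ± 1.55) and Col1a2 (14.1 ± 0.776). Col2a1 stood at 2.14 ± 0.527 TPM in WT lung, 2.03 ± 0.346 in WT cerebellum and 0.370 ± 0.137 in WT cortex. The cartilage collagen was thus far below the leading chains in each tissue, and its lung and cerebellum levels did not differ beyond their spread.

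**Figure D1:**
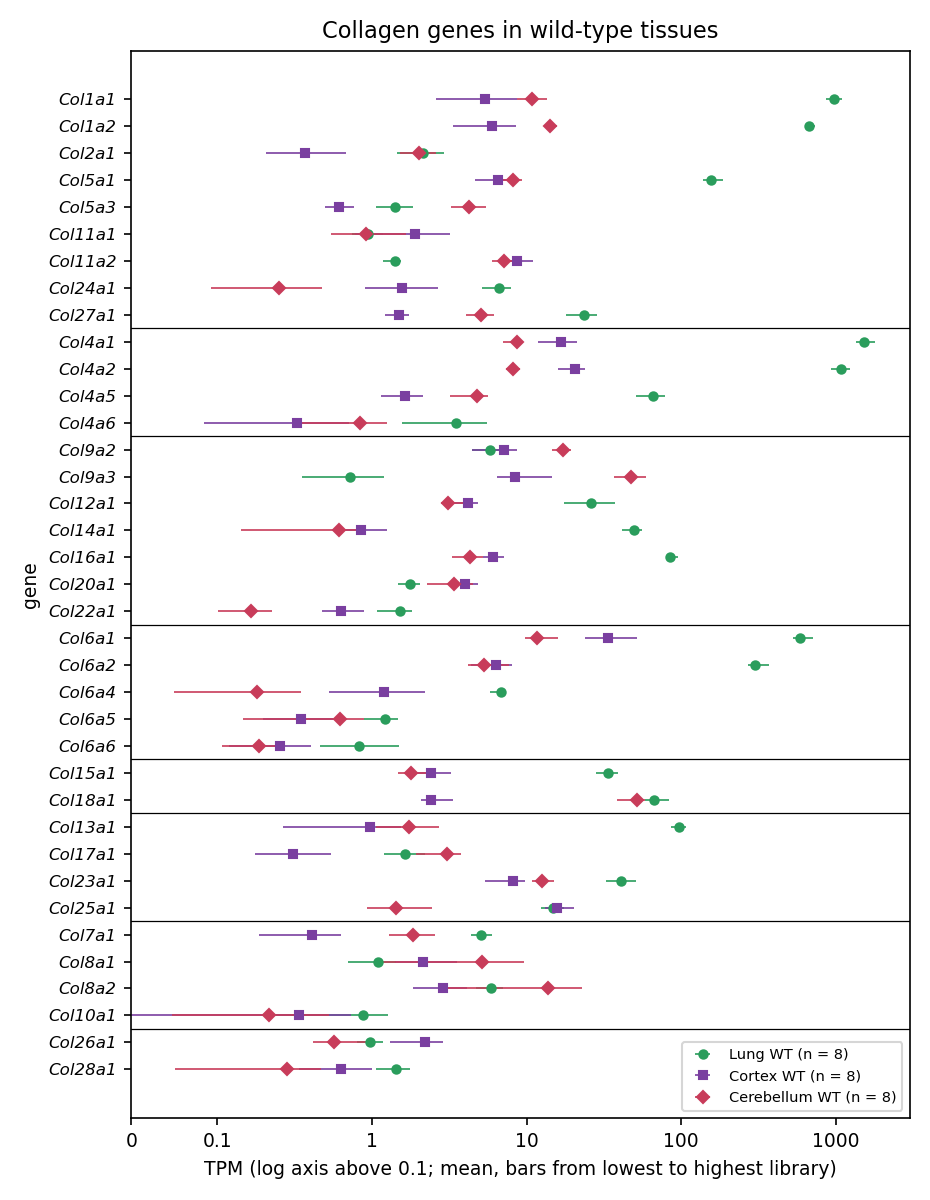
Mean TPM (counts per exon length scaled to a common total, log axis above 0.1) of each collagen gene in WT lung, cortex and cerebellum, 8 libraries each, with bars from the lowest to the highest library and lines between collagen classes. Col4a1, at 1527 TPM, is the highest gene in lung, Col6a1 leads in cortex at 33.5 TPM and Col18a1 in cerebellum at 51.8 TPM.

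Between the brain regions, which share a batch, 34 of the 36 collagen genes tested differed in WT mice, 17 higher in cortex and 17 higher in cerebellum, where 73.5% of all 18032 genes passed, 35.4% higher in cortex and 38.2% lower there (edgeR quasi-likelihood test, adjusted p under 0.05, as in all later calls). Col18a1 measured 3.85 to 6.38 CPM in WT cortex (median 4.45) and 72.3 to 105 in WT cerebellum (median 96.3). No cortex library came near a cerebellum library, and the log2 difference was -4.29 (SE 0.10, adjusted p = 3.11e-35). Col5a3, a minor type V fibril chain, was lower in cortex by a log2 difference of -2.66 (SE 0.13, adjusted p = 1.99e-24), and Col27a1 by -1.64 (SE 0.10, adjusted p = 1.03e-19). Col2a1 was lower in cortex by -2.33 (SE 0.16, adjusted p = 1.12e-18), and Col4a2 was higher there by 1.46 (SE 0.09, adjusted p = 1.42e-19).

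Col2a1 was the only collagen gene called higher than WT in each of the 6 knockout comparisons. It is annotated on the minus strand of chr15:97975602-98004695 (GRCm38), over 56 exon blocks. In lung, Col2a1 ranged from 3.95 to 7.72 CPM in WT (median 5.60), from 11.9 to 23.0 in Cic-S-KO (median 15.8) and from 43.5 to 53.1 in Cic-L-KO (median 49.6). The 3 lung groups did not overlap. The log2 fold change was 1.52 (SE 0.12, adjusted p = 2.20e-08) in Cic-S-KO and 3.07 (SE 0.13, adjusted p = 1.01e-15) in Cic-L-KO, an 8.40-fold rise. Tested directly, Cic-S-KO lung was below Cic-L-KO lung by a log2 difference of -1.55 (SE 0.12, adjusted p = 3.06e-09).

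In cerebellum, Col2a1 ranged from 3.61 to 6.25 CPM in WT (median 4.82), from 5.15 to 8.95 in Cic-S-KO (median 7.06) and from 9.15 to 15.1 in Cic-L-KO (median 12.4). All 8 Cic-L-KO libraries lay above every WT and every Cic-S-KO library, and 4 of 7 Cic-S-KO libraries lay above every WT library. The log2 fold change was 1.32 (SE 0.12, adjusted p = 1.50e-08) in Cic-L-KO and 0.50 (SE 0.12, adjusted p = 0.0138) in Cic-S-KO, and the direct difference of the knockouts was -0.82 (SE 0.12, adjusted p = 3.58e-05).

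In cortex, Col2a1 was scarce, with 14 to 20 counts as the lowest and median library of WT. It ranged from 0.517 to 1.65 CPM in WT (median 0.876), from 1.48 to 2.50 in Cic-S-KO (median 2.11) and from 1.46 to 2.60 in Cic-L-KO (median 1.72). WT replicate 2, at 1.65 CPM, reached into both knockout ranges, and 5 libraries of each knockout lay above it. The log2 fold change was 1.14 (SE 0.19, adjusted p = 5.51e-04) in Cic-S-KO and 1.00 (SE 0.18, adjusted p = 5.03e-05) in Cic-L-KO. The direct difference of the knockouts in cortex, 0.14 (SE 0.18), did not pass (adjusted p = 0.587), which does not show that they act alike.

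**Figure D2:**
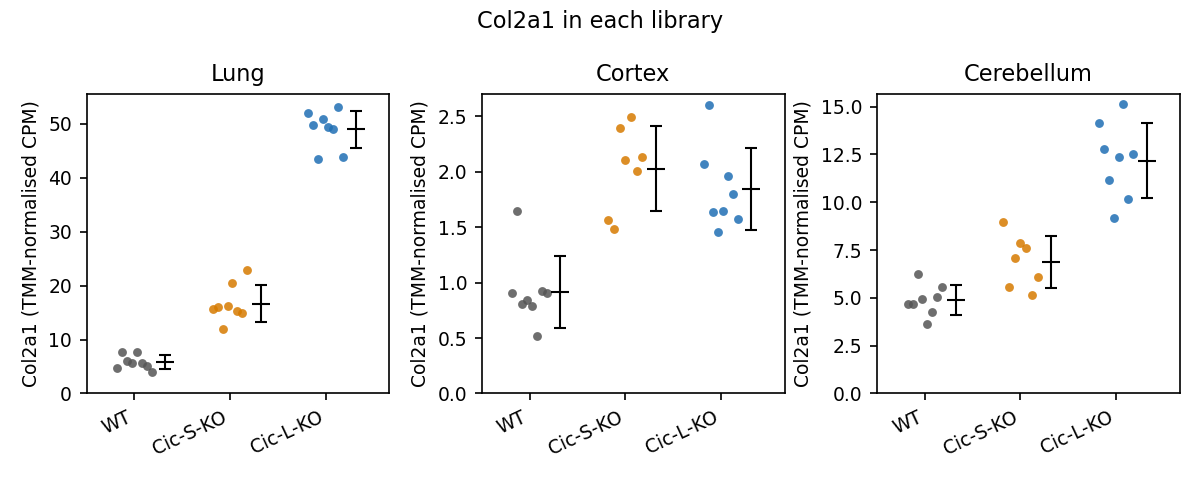
Col2a1 in each library of lung, cortex and cerebellum, as TMM-normalised CPM on axes from 0 that differ between panels. Points are libraries, and the black marks are the mean and SD of each group. In lung the WT libraries reach 7.72 CPM, the Cic-S-KO libraries lie between 11.9 and 23.0 and the Cic-L-KO libraries begin at 43.5.

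Markers of cartilage cells were read beside Col2a1. Over the 11 chondrocyte markers measured, the summed level was 35.2 to 60.2 TPM in WT lung, 42.6 to 105 in Cic-S-KO lung and 40.1 to 67.4 in Cic-L-KO lung, with 4, 5 and 4 markers above a mean of 1 TPM. Of the knockout libraries, 5 of 8 in Cic-S-KO lung and 3 of 8 in Cic-L-KO lung lay above every WT library. Acan, the cartilage proteoglycan, averaged at most 0.133 TPM in any lung group, and Matn1 (at most 0.0564), Ucma (at most 0.0391) and Epyc (at most 0.0370) were near 0. Chad, the most abundant of the list in lung, averaged 22.3 ± 7.23 TPM in WT libraries, against 41.7 ± 19.0 for Cic-S-KO and 28.7 ± 9.68 for Cic-L-KO. Hapln1 (13.2 TPM), Cytl1 (6.55) and Scrg1 (1.58) were the other markers with a WT lung mean above 1 TPM. In WT cortex the list summed to 113 to 135 TPM, above the range of WT lung. Single markers are not given for cortex, and the sum alone does not show cartilage cells there. All 7 Cic-S-KO cortex libraries lay below the WT range (92.2 to 105) and 5 of 8 Cic-L-KO libraries above it (124 to 163). The part of cartilage cells in the Col2a1 values was not tested. Sox9, Sox5 and Sox6, which drive Col2a1 in cartilage, were not called in either knockout lung against WT. Between the knockouts in lung, 1 of the 3 was called lower in Cic-S-KO, where 4.85% of all genes were called lower. Sox9 rose in Cic-L-KO cortex (0.28, SE 0.07, adjusted p = 0.00231, but 0.19 and adjusted p = 0.234 in the cortex libraries low in choroid plexus markers that are described further on), in Cic-L-KO cerebellum (0.30, SE 0.08) and in Cic-S-KO cerebellum (0.34, SE 0.08), and Sox5 rose in Cic-L-KO cortex (0.30, SE 0.05).

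Outside Col2a1, the tissues differed in how many collagen genes changed and in which direction. Of the 37 genes, 30 were called in at least 1 of the 6 knockout comparisons, 7 in none and 9 in both directions in different comparisons. Of all 19440 genes tested in any of them, 56.3% were called in at least 1 and 6.96% in both directions. The uncalled genes were Col10a1, Col14a1, Col15a1, Col20a1, Col4a5, Col8a2 and Col9a3. All 37 passed the low-count filter in lung and 36 in brain, where Col10a1, the hypertrophic cartilage collagen, had a median of at most 7 counts per group.

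**Figure D3:**
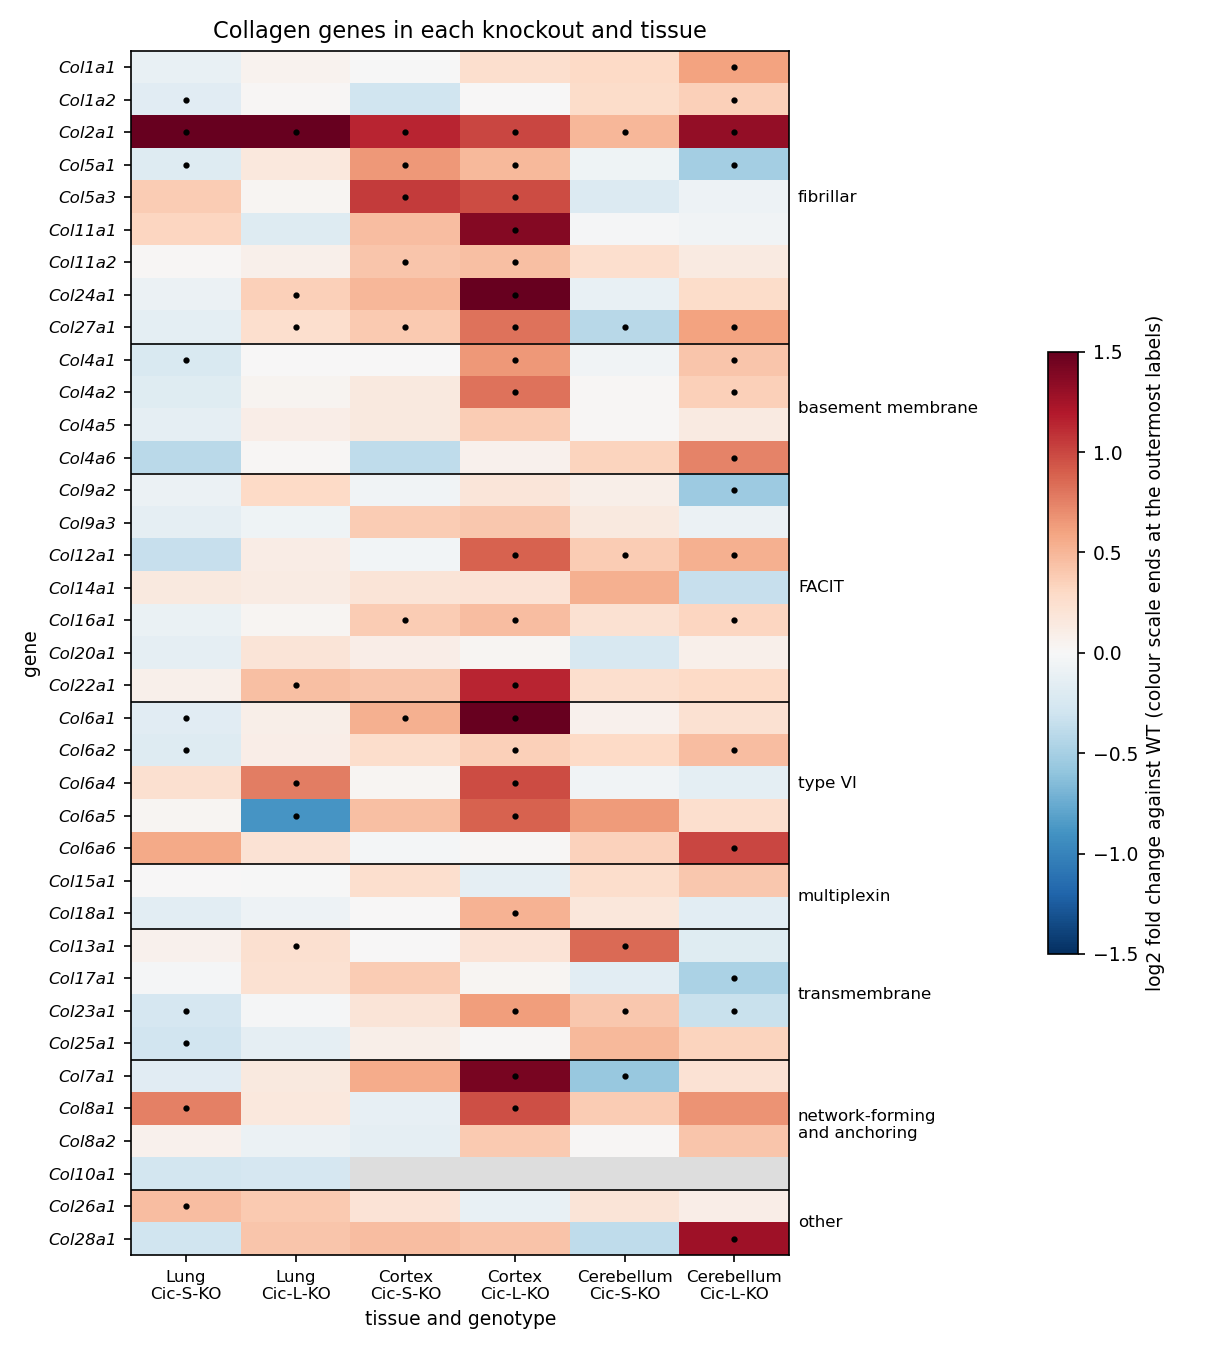
Log2 fold change against WT of the 37 collagen genes (rows, by class) in each tissue and knockout (columns). Red is higher than WT, blue lower, grey not tested, black dots mark an adjusted p under 0.05, and the colours end at -1.5 and 1.5. Col2a1 is marked in all 6 columns, and Cic-L-KO cortex has 20 marked genes, all higher.

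In Cic-S-KO lung, 10 of 37 collagen genes were called, 3 higher and 7 lower, while 15.7% of all 16695 genes tested were called, more of them higher (9.99%) than lower (5.73%). The median log2 fold change of the collagens was -0.11, against -0.001 over all genes. The genes that fell include abundant chains of the lung matrix, and each by little. Col4a1 ranged from 3029 to 3810 CPM in WT (median 3320) and from 2598 to 3120 in Cic-S-KO (median 2917). Of 8 Cic-S-KO libraries, 6 lay below every WT library (log2 fold change -0.22, SE 0.07, adjusted p = 0.0215). Col1a2 fell from 2333 to 2606 CPM in WT (median 2449) to 2026 to 2485 in Cic-S-KO (median 2156), a log2 fold change of -0.17 (SE 0.05, adjusted p = 0.0124).

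Col5a1 (-0.19), the type VI chains Col6a1 (-0.17) and Col6a2 (-0.19), Col23a1 (-0.25) and Col25a1 (-0.29) also fell in Cic-S-KO lung. Col8a1, a short-chain collagen of vessel walls, went the other way. It ranged from 1.57 to 3.25 CPM in WT (median 2.63) and from 3.44 to 5.46 in Cic-S-KO (median 4.16), with no overlap, a log2 fold change of 0.75 (SE 0.14, adjusted p = 6.97e-04). Col26a1 rose by 0.46 (SE 0.16, adjusted p = 0.0413). By class, 0 of 7 FACIT chains were called in Cic-S-KO lung, 1 of 4 basement membrane chains fell and 2 of 9 fibrillar chains fell.

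Vessel markers were also lower in these libraries. The summed level of 10 endothelial markers was 3333 to 4433 TPM in WT lung and 2772 to 3791 in Cic-S-KO lung, and that of 9 mural cell markers was 1562 to 2000 in WT and 1340 to 1667 in Cic-S-KO. In each list 6 of 8 Cic-S-KO libraries lay below every WT library. The 9 fibroblast and meninges markers summed to 232 to 294 TPM in WT and 212 to 272 in Cic-S-KO. The part of these cells in the lower collagen values was not tested, and in bulk tissue fewer cells of a type and less RNA per cell cannot be told apart.

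In Cic-L-KO lung, 7 of 37 were called, 6 higher and 1 lower, and 4.89% of all genes (2.62% higher and 2.28% lower). The median over collagens was 0.10, against -0.001 over all genes. After Col2a1, the smallest p-values were those of a pair of type VI chains whose genes lie side by side on the minus strand of chromosome 9 (GRCm38 chr9:105989454-106096783 for Col6a4 and chr9:105856078-105960643 for Col6a5), and they went in opposite directions. Col6a4 ranged from 14.8 to 18.5 CPM in WT (median 17.5) and from 23.6 to 39.8 in Cic-L-KO (median 28.0). The groups did not overlap (log2 fold change 0.77, SE 0.10, adjusted p = 1.74e-05). Col6a5 ranged from 2.58 to 4.11 CPM in WT (median 3.27) and from 1.12 to 2.47 in Cic-L-KO (median 1.85), also without overlap (-0.88, SE 0.16, adjusted p = 0.00157).

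Col13a1, a transmembrane collagen of cell adhesions, ranged from 118 to 144 CPM in WT and from 141 to 179 in Cic-L-KO lung, which overlapped at their edge (0.24, SE 0.06, adjusted p = 0.0128). Smaller rises were called for Col24a1 (0.36), Col22a1 (0.46) and Col27a1 (0.25). Without the low-count filter, Col22a1 (adjusted p = 0.0597) and Col27a1 (adjusted p = 0.0776) were not called. Col27a1 also lost its call with only the compared groups in the fit (adjusted p = 0.0797). The abundant chains of lung matrix, Col4a1, Col4a2, Col1a1, Col1a2 and Col6a1, were not among those called. Endothelial markers summed to 3254 to 4543 TPM in Cic-L-KO lung, which spans the whole WT range.

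Tested against each other in lung, the knockouts differed for 19 of 37 collagen genes, 16 of them lower in Cic-S-KO and 3 higher, against 12.2% of all genes called, 4.85% lower and 7.31% higher. Col5a1 lay between 293 and 403 CPM in Cic-S-KO and between 390 and 460 in Cic-L-KO, where 7 of 8 Cic-S-KO libraries lay below every Cic-L-KO library (log2 difference -0.35, SE 0.06, adjusted p = 2.56e-04). Col6a5 was higher in Cic-S-KO by 0.91 (SE 0.16), and Col6a4 was lower by -0.53 (SE 0.10). Col27a1 was lower in all 8 Cic-S-KO libraries than in any Cic-L-KO library (-0.39, SE 0.07, adjusted p = 6.83e-04). Both type VI partner chains were lower in Cic-S-KO as well, Col6a1 by -0.26 and Col6a2 by -0.29.

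In Cic-L-KO cortex, 20 of 36 collagen genes tested were called, all higher. The share of all genes called was 43.2% in either direction, with 21.4% higher and 21.9% lower. The median log2 fold change of the collagens was 0.46, against 0.01 over all 16974 genes, and 34 of 36 had a positive value. By class, the called genes were 7 of 9 fibrillar chains, 4 of 5 type VI chains, 3 of 7 FACIT chains, 2 of 4 basement membrane chains, 2 of 3 network-forming or anchoring chains tested, 1 of 2 multiplexins and 1 of 4 transmembrane collagens. Summed collagen TPM was 164 to 221 in WT cortex and 268 to 353 in Cic-L-KO cortex.

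Col6a1 was the most abundant collagen of cortex and had the smallest p among them. It ranged from 28.8 to 59.3 CPM in WT (median 35.7), from 44.5 to 69.5 in Cic-S-KO (median 62.2) and from 92.6 to 125 in Cic-L-KO (median 113). All 8 Cic-L-KO libraries lay above every other cortex library, and the log2 fold change against WT was 1.50 (SE 0.13, adjusted p = 1.50e-08). Its partner chain Col6a2 moved much less, from 9.87 to 18.5 CPM in WT (median 14.2) to 15.6 to 22.3 in Cic-L-KO (median 17.9), a log2 fold change of 0.36 (SE 0.12, adjusted p = 0.0175). The ratio of Col6a1 to Col6a2 in TPM was 2.96 to 6.72 in WT cortex, 5.19 to 6.85 in Cic-S-KO cortex and 9.58 to 13.5 in Cic-L-KO cortex. In lung the same ratio stayed between 1.80 and 2.01 in all 3 genotypes. The type VI chains analysed, without Col6a3, thus held 22.5% ± 3.03 of collagen TPM in WT cortex and 34.5% ± 1.60 in Cic-L-KO cortex.

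Among fibril chains of Cic-L-KO cortex, Col24a1 ranged from 1.89 to 5.33 CPM in WT (median 3.04) and from 6.0 to 11.9 in Cic-L-KO (median 8.90), without overlap (1.50, SE 0.19, adjusted p = 5.68e-07). Col27a1 ranged from 4.39 to 5.92 CPM in WT (median 5.28) and from 7.29 to 10.2 in Cic-L-KO (median 9.41), also without overlap (0.82, SE 0.10, adjusted p = 1.50e-07). These are the evolutionarily related minor fibril chains of developing bone and cartilage. Col11a1, a chain of type XI collagen, rose by 1.37 (SE 0.22), and its partner Col11a2 by 0.46 (SE 0.09). Col5a3 rose by 0.98 (SE 0.15) and Col5a1 by 0.48 (SE 0.17). In the cortex libraries low in choroid plexus markers, Col11a2 was at 0.18 (adjusted p = 0.243) and Col5a1 at 0.35 (adjusted p = 0.435), and neither was called. The type I chains, the main fibril chains of the meninges, were not called (Col1a1 0.26, Col1a2 0.01), and in those libraries their values were -0.16 and -0.30, also not called.

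Among the FACIT chains, Col12a1, Col16a1 and Col22a1 rose, and Col9a2, Col9a3, Col14a1 and Col20a1 were not called. Col22a1 ranged from 1.19 to 2.13 CPM in WT (median 1.42) and from 2.55 to 4.11 in Cic-L-KO cortex (median 3.48), without overlap (1.14, SE 0.13, adjusted p = 2.14e-08). Col12a1 ranged from 13.0 to 19.7 CPM in WT (median 17.7) and from 27.2 to 34.6 in Cic-L-KO (median 31.7), without overlap (0.88, SE 0.09, adjusted p = 3.01e-08). Col7a1, the anchoring fibril chain of skin, rose by 1.43 (SE 0.20) from a WT median of 1.10 CPM. Col23a1, a transmembrane collagen, rose by 0.63 (SE 0.10), and its 8 Cic-L-KO libraries lay above every WT library.

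**Figure D4:**
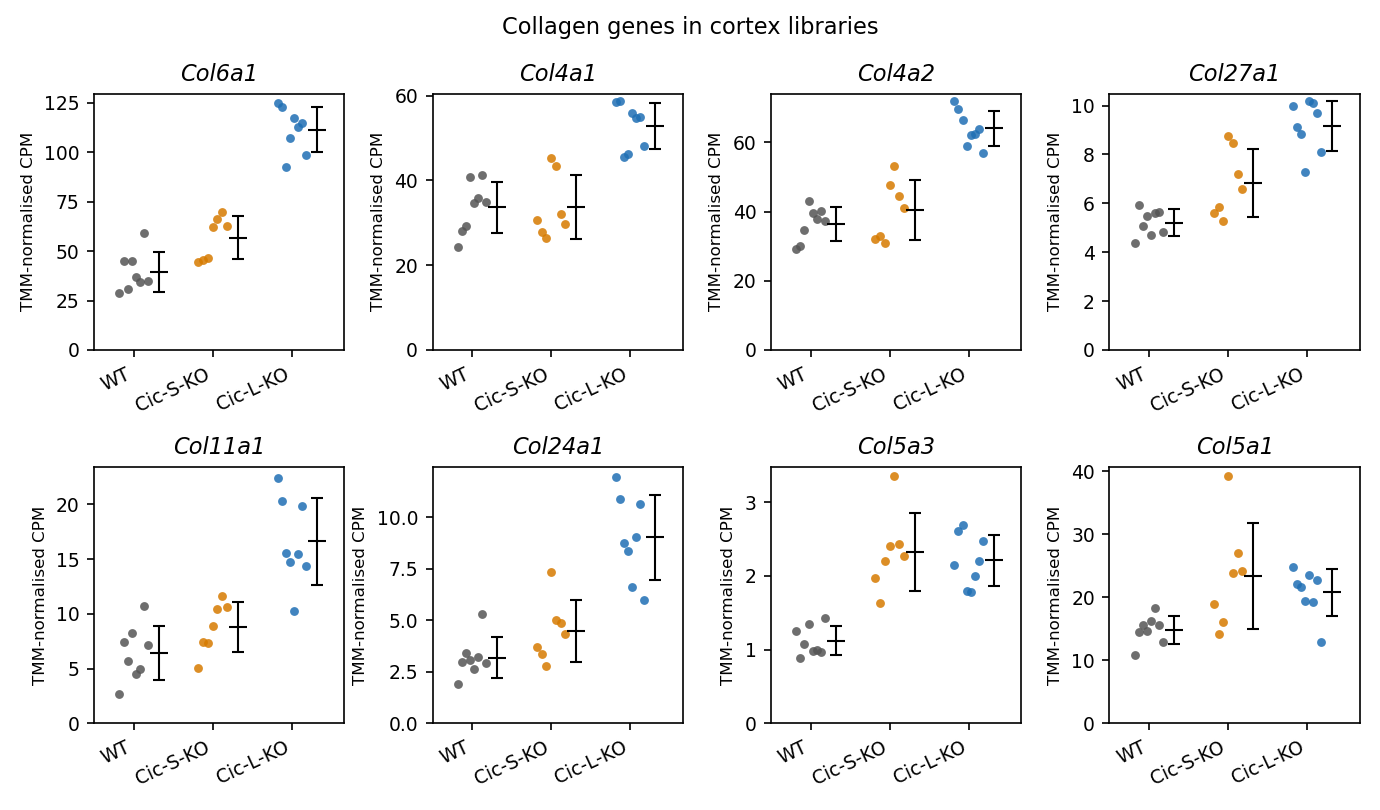
TMM-normalised CPM of 8 collagen genes in each cortex library, on linear axes from 0, with the mean and SD of each group as black marks. Col6a1 lies between 92.6 and 125 CPM in Cic-L-KO and at most at 69.5 in the other groups, and Col5a3 is above WT in both knockouts.

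The type IV pair Col4a1 and Col4a2 rose in Cic-L-KO cortex and Cic-L-KO cerebellum. They lie head to head on opposite strands of chromosome 8, with starts so close that the annotated ends overlap by 22 bases. The RefSeq sequence around these starts (GRCm38.p6, chr8:11312801-11312830) is shown on the strand of each gene because this pair is read out in both directions, with the 22 bases from start to start in capitals.
Col4a1: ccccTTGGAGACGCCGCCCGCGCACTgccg
Col4a2: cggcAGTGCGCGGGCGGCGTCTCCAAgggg
In cortex, Col4a1 ranged from 24.4 to 41.3 CPM in WT (median 34.8) and from 45.5 to 58.8 in Cic-L-KO (median 54.9), and Col4a2 from 29.2 to 43.0 in WT (median 37.7) and from 56.9 to 72.0 in Cic-L-KO (median 63.2). Neither gene's groups overlapped, and the log2 fold changes were 0.65 (SE 0.12, adjusted p = 1.50e-04) and 0.81 (SE 0.10, adjusted p = 1.65e-06). In Cic-S-KO cortex neither was called.

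Markers of vessel cells and of neurons moved with these values. Neuron markers, 7 in number, summed to 4469 to 4925 TPM in WT cortex and 3448 to 3919 in Cic-L-KO cortex, where all 8 libraries lay below every WT library. The 10 endothelial markers summed to 118 to 197 TPM in WT cortex, 109 to 163 in Cic-S-KO and 173 to 229 in Cic-L-KO, where 6 of 8 libraries lay above every WT library. Mural markers summed to 107 to 172 TPM in WT and 144 to 207 in Cic-L-KO, and 5 of 8 Cic-L-KO libraries lay above every WT library. Fibroblast and meninges markers stayed within the WT range, at 63.8 to 136 in WT and 64.3 to 117 in Cic-L-KO. Choroid plexus and ependyma markers, 8 in number, varied far more among cortex libraries, from 20.7 to 3824 TPM, and reached 500 TPM in 2 of 8 WT, 1 of 7 Cic-S-KO and 5 of 8 Cic-L-KO libraries. With only the cortex libraries under 500 TPM, Cic-L-KO held 13 called collagen genes, all higher and all among the 20, with fewer libraries in the fit and 9.46% of all 17425 genes called higher. The 7 that were not called there were Col4a1, Col5a1, Col6a2, Col6a4, Col11a2, Col16a1 and Col18a1. There Col6a1 was at 1.45, Col24a1 at 1.38 and Col4a2 at 0.68, all called, and Col4a1, at 0.55, was not (adjusted p = 0.0645). The part of vessel cells and of neurons in the result was not tested.

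Col8a1, Col8a2 and Col9a3, singled out after their values were seen, were higher where the choroid plexus markers were higher. In cortex, Col8a1 stood at 1.76 TPM in the library with the lowest marker sum, a Cic-S-KO library, and at 8.55 in the one with the highest, a Cic-L-KO library, Col8a2 at 1.75 and 9.86, and Col9a3 at 9.52 and 23.6. In cerebellum the marker sum ran from 65.9 to 12555 TPM, and these genes stood at 1.07 and 14.1, at 3.08 and 25.8, and at 36.9 and 65.5 TPM in its lowest and highest libraries. Col8a1 was called higher in Cic-L-KO cortex (0.97, SE 0.25, adjusted p = 0.00384), and in the libraries under 500 TPM of these markers its value was 0.45 (adjusted p = 0.0336). Col9a3, called in none of the 6 comparisons over all libraries, was called higher in Cic-S-KO cortex in the libraries under 500 TPM (0.45, adjusted p = 0.00918), where it was at -0.31 in Cic-L-KO cortex (adjusted p = 0.0517). Its difference between the knockouts there was 0.76 (adjusted p = 3.05e-05), against -0.02 in all cortex libraries. Col2a1 was called there in both knockouts (1.23 in Cic-S-KO, adjusted p = 9.09e-04, and 0.90 in Cic-L-KO, adjusted p = 0.00493).

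**Figure D5:**
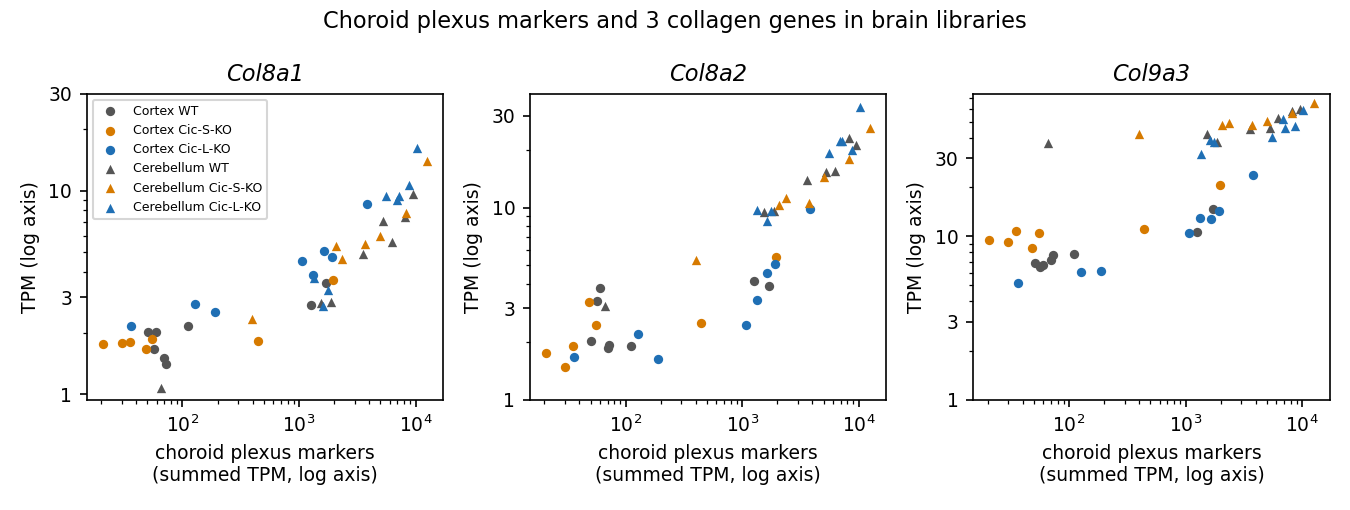
Col8a1, Col8a2 and Col9a3 in TPM against the summed TPM of 8 choroid plexus and ependyma markers in the cortex (circles) and cerebellum (triangles) libraries, both axes logarithmic, colours by genotype. The marker sum runs from 20.7 to 12555 TPM, and Col8a1 and Col8a2 are highest among the libraries with the highest sums.

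In Cic-S-KO cortex, 7 of 36 collagen genes were called, all higher, where 6.53% of all genes were called, 2.83% higher and 3.70% lower. The collagen median was 0.20, against -0.001 over all genes. Of the 7, 5 are fibrillar chains. Col5a3 ranged from 0.888 to 1.43 CPM in WT (median 1.04), from 1.64 to 3.35 in Cic-S-KO (median 2.27) and from 1.79 to 2.68 in Cic-L-KO (median 2.17). Both knockouts lay wholly above WT, and the Cic-S-KO log2 fold change was 1.05 (SE 0.16, adjusted p = 1.31e-04). Col11a2 ranged from 14.1 to 20.5 CPM in WT (median 15.5) and from 18.5 to 23.9 in Cic-S-KO (median 21.4), with 6 of 7 libraries above every WT library (0.42, SE 0.09, adjusted p = 0.00804).

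The other calls of Cic-S-KO cortex were Col27a1 (0.39), Col16a1 (0.38), Col6a1 (0.53) and Col5a1 (0.65), with adjusted p between 0.0255 and 0.0348. Each of the 4 lost its call under some other settings. With only Cic-S-KO and WT cortex in the fit, adjusted p was 0.0505 for Col27a1, 0.0543 for Col16a1, 0.0778 for Col6a1 and 0.0679 for Col5a1. Endothelial and mural marker sums of Cic-S-KO cortex overlapped those of WT.

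Tested against each other in cortex, the knockouts differed for 14 of 36 collagen genes, 13 of them lower in Cic-S-KO, against 33.9% of all genes called, 16.5% lower and 17.4% higher. Col12a1 was lowest in p, with 13.7 to 21.2 CPM in Cic-S-KO and 27.2 to 34.6 in Cic-L-KO (log2 difference -0.93, SE 0.10, adjusted p = 3.10e-08). Col6a1 differed by -0.97 (SE 0.14), Col4a2 by -0.67 (SE 0.11), Col22a1 by -0.72 (SE 0.13) and Col24a1 by -1.01 (SE 0.19). In the first 4 of these, all 7 Cic-S-KO libraries lay below every Cic-L-KO library. Col15a1, a vessel multiplexin, was the gene higher in Cic-S-KO (0.39, SE 0.14, adjusted p = 0.0267). It was not called with a replicate block (adjusted p = 0.0567) or in the cortex libraries low in choroid plexus markers (adjusted p = 0.0903). In those libraries Col4a1, Col6a4, Col18a1 and Col27a1 also lost their call. Col9a3 (adjusted p = 3.05e-05) and the scarce Col17a1 (adjusted p = 0.0331) were called higher in Cic-S-KO there.

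In Cic-L-KO cerebellum, 16 of 36 collagen genes were called, 12 higher and 4 lower, where 21.5% of all 16643 genes were called, 10.9% higher and 10.6% lower. The collagen median was 0.26, against 0.004 over all genes. Type I and type IV chains were among those that rose. Col1a1 ranged from 14.9 to 23.0 CPM in WT (median 18.7) and from 23.6 to 33.0 in Cic-L-KO (median 27.5), without overlap (0.60, SE 0.12, adjusted p = 9.66e-04). Col4a1 ranged from 13.6 to 18.4 CPM in WT and from 20.9 to 24.4 in Cic-L-KO, without overlap (0.41, SE 0.09, adjusted p = 0.00143), and Col4a2 rose by 0.36 (SE 0.07, adjusted p = 5.23e-04). Col1a2 (0.35), Col4a6 (0.74), Col6a2 (0.46) and Col16a1 (0.32) rose as well.

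Col27a1 ranged from 14.4 to 20.7 CPM in WT cerebellum (median 17.0) and from 19.3 to 32.6 in Cic-L-KO (median 26.8), with 6 of 8 libraries above every WT library (0.60, SE 0.10, adjusted p = 1.01e-04). Col12a1 rose by 0.54 (SE 0.11). The scarce chains Col28a1 (1.27) and Col6a6 (1.00) rose from means under 1 CPM. The other direction was taken by 4 genes. Col9a2, a type IX FACIT chain, ranged from 11.7 to 15.5 CPM in WT (median 14.0) and from 7.79 to 10.6 in Cic-L-KO (median 9.45), without overlap (-0.55, SE 0.07, adjusted p = 6.71e-06). Col5a1 ranged from 16.0 to 21 CPM in WT (median 17.8) and from 9.30 to 15.0 in Cic-L-KO (median 12.6), without overlap (-0.51, SE 0.09, adjusted p = 1.93e-04). Col23a1 (-0.33) and Col17a1 (-0.48), transmembrane collagens, fell as well.

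Vessel and fibroblast markers were higher in these same libraries. Endothelial markers summed to 101 to 159 TPM in WT cerebellum and 179 to 213 in Cic-L-KO, mural markers to 158 to 196 and 209 to 267, and fibroblast and meninges markers to 101 to 137 and 150 to 175. In all 3 lists, each of the 8 Cic-L-KO libraries lay above every WT library. Their part in the rise of type I and type IV chains was not tested.

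In Cic-S-KO cerebellum, 6 of 36 were called, 4 higher and 2 lower, and 8.23% of all genes (4.34% higher and 3.89% lower). The collagen median was 0.18, against 0.005 over all genes. Col13a1 ranged from 1.31 to 3.26 CPM in WT (median 1.89) and from 3.01 to 5.02 in Cic-S-KO (median 3.51), with 5 of 7 libraries above every WT library (0.85, SE 0.16, adjusted p = 0.00201). Col23a1 ranged from 16.5 to 23.3 CPM in WT (median 18.4) and from 19.1 to 29.6 in Cic-S-KO (median 24.8; 0.40, SE 0.08, adjusted p = 0.00296). Col27a1 fell from 14.4 to 20.7 CPM in WT to 11.4 to 14.9 in Cic-S-KO (-0.42, SE 0.10, adjusted p = 0.0132), with 6 of 7 libraries below every WT library. Col7a1 fell by 0.56 on the log2 scale (adjusted p = 0.0252) and Col12a1 rose by 0.39 (adjusted p = 0.0289). Col12a1 was not called with only the compared groups in the fit (adjusted p = 0.0597). Fibroblast and meninges markers summed to 103 to 173 TPM in Cic-S-KO cerebellum, and mural markers to 143 to 238, and in each list 4 of 7 libraries lay above every WT library.

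Tested against each other in cerebellum, the knockouts differed for 12 of 36 collagen genes, 6 in each direction, against 12.4% of all genes (6.06% higher and 6.38% lower in Cic-S-KO). Col27a1 lay between 11.4 and 14.9 CPM in Cic-S-KO and between 19.3 and 32.6 in Cic-L-KO, without overlap (log2 difference -1.02, SE 0.10, adjusted p = 1.74e-07). Against WT the same gene had fallen in Cic-S-KO and risen in Cic-L-KO. Col23a1 lay between 19.1 and 29.6 CPM in Cic-S-KO and between 14.4 and 16.2 in Cic-L-KO (log2 difference 0.73, SE 0.08, adjusted p = 4.56e-07). Col9a2 (0.64, SE 0.08) and Col13a1 (1.03, SE 0.16) were higher in Cic-S-KO, and in all of these the groups did not overlap.

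Some chains responded to a knockout differently in cortex and in cerebellum. Here, as in the WT comparison of the regions, cortex and cerebellum libraries were not paired, and the labels do not say whether they share animals. For Cic-L-KO, 10 of 36 collagen genes had an effect that differed between cortex and cerebellum, all more positive in cortex, against 23.0% of all genes called and 11.5% more positive in cortex. The smallest p was that of Col23a1, which rose by 0.63 in cortex and fell in cerebellum (difference 0.96, SE 0.13, adjusted p = 2.04e-07). Col6a1 differed by 1.27 (SE 0.19), Col9a2 by 0.74 (SE 0.12), Col5a3 by 1.05 (SE 0.18) and Col5a1 by 0.99 (SE 0.20). For Cic-S-KO, 4 of 36 differed, all more positive in cortex, where 4.50% of all genes were called and 2.01% were more positive in cortex: Col5a3 by 1.25 (SE 0.18, adjusted p = 9.65e-05), Col27a1 by 0.81 (SE 0.15), Col7a1 by 1.12 (SE 0.27) and Col5a1 by 0.71 (SE 0.20). Col2a1 did not pass in either (Cic-L-KO -0.31, adjusted p = 0.313, Cic-S-KO 0.64, adjusted p = 0.084). Without the low-count filter, the Cic-S-KO difference of Col5a1 was not called (adjusted p = 0.0756).

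The machinery that makes collagen was read from a list of 49 genes for chain modification and folding, secretion and propeptide cleavage, cross-linking, collagen receptors and the SOX factors. In Cic-L-KO cortex, 18 of 47 tested rose and 4 fell (38.3% and 8.5%), against 21.4% and 21.9% of all genes. P3h3, a prolyl 3-hydroxylase, rose by 1.13 (SE 0.09), from a mean of 12.5 CPM in WT to 27.2, Ppib, a prolyl isomerase that folds procollagen, by 0.69 (SE 0.09), while the receptor gene Adgrg6 fell by 1.03 on the log2 scale. Folding genes made up 8 of the 18, among them Plod1, Plod2 and Plod3, the lysyl hydroxylases, and Serpinh1, the collagen chaperone. Plod2, Plod3 and Serpinh1 were not called in the cortex libraries low in choroid plexus markers (adjusted p = 0.324, 0.384 and 0.171). In Cic-S-KO lung, 12 of 48 fell (25%) and 2 rose (4.2%), against 5.73% and 9.99% of all genes. Among them were Serpinh1 (-0.18), the propeptide protease gene Bmp1 (-0.23) and the lysyl oxidase genes Loxl2 (-0.23) and Loxl3 (-0.24), and Ddr1, a collagen receptor, rose by 0.22.

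The other comparisons held fewer calls. In Cic-L-KO lung 2 of 48 rose (Ddr1 0.20, P3h4 0.15) and 0 fell by edgeR's test, where 8 had an unadjusted p under 0.05 and 2.62% of all genes rose. In Cic-L-KO cerebellum 10 of 47 rose (21.3%) and 1 fell (2.1%), against 10.9% and 10.6% of all genes, led by Itga1 (0.35) and Adgrg1 (0.34), both collagen receptors. In Cic-S-KO cortex 4 of 47 rose (8.5%, against 2.83% of all genes), led by Ddr1 (0.31). In Cic-S-KO cerebellum 2 rose (4.3%) and 1 fell (2.1%), shares near or below the 4.34% and 3.89% of all genes. Of these, Fkbp10, a folding isomerase of the endoplasmic reticulum, rose by 0.48 (SE 0.08). The pathway medians were 0.23 in Cic-L-KO cortex and -0.09 in Cic-S-KO lung, the largest rise and the largest fall of the 6.

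Capicua binds an octamer with the letters TGAATGAA, TGAATGGA, TCAATGAA or TCAATGGA. RefSeq promoter windows of 300 bases, from 250 before to 50 after each start (GRCm38.p6), were at hand for 30 of the 37 collagen genes, 32 windows in all. None of the 32 held any of the 4 octamers on either strand, while 1260 of all 32851 windows did (3.84%). The 7 genes without a window were read only at the level of their counts, and Col2a1 is among them. This says that these letters are not in these windows.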

How the data were processed

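The deposited table holds raw read counts per gene, which the authors made for 70 libraries. Alignment used STAR 2.7 and the genome build GRCm38.p6, per the submitters' processing notes, and the counting program, annotation and strand setting are not given in the sources used here. Strand matters for Col9a3, of whose exon bases 6.1% overlap Tcfl5 on the opposite strand. Identifiers were matched to GENCODE M21 (50639 of 50789 matched). The collagen genes and gene lists were chosen with earlier results of these data known. Genes passing edgeR's filterByExpr were tested per tissue with edgeR 4.0.16 (R 4.3.3; TMM factors, robust quasi-likelihood fit over all 3 genotypes, Benjamini-Hochberg adjustment over all genes tested, threshold 0.05), and the region comparisons over all brain groups. TPM used exon-union lengths. All collagen genes could be named, with the called genes of smallest p described in full. Alternatives were DESeq2 1.42.0, other size factors, filters, covariates, sample sets and a replicate block. No replicate pair of a group held identical counts. On simulated counts with 200 genes changed, edgeR recovered 191 to 197 of them and DESeq2 192 to 198, depending on the comparison simulated. Of all calls, 2.02% to 3.9% were false with edgeR and 8.76% to 10.7% with DESeq2.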

Additional observations from a re-analysis of the deposited data

Results flagged for a closer look

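Among 60 groups of values, 2 held a library far from the others, where chance at 1 in 20 gives 3. Col23a1 in Cic-S-KO lung reached 70.5 CPM in replicate 4, with the next library at 59.6 and the lowest at 54.1. Col2a1 in WT cortex reached 1.65 CPM in replicate 2, with the next at 0.927 and the lowest at 0.517.

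The Cic-L-KO effect differed between cortex and cerebellum by an interaction test for 10 collagen genes, each more positive in cortex. The log2 differences of the effects were 1.43 for Col11a1, 1.27 for Col6a1, 1.23 for Col24a1, 1.21 for Col7a1, 1.05 for Col5a3, 0.99 for Col5a1, 0.96 for Col23a1, 0.74 for Col9a2, 0.68 for Col18a1 and 0.45 for Col4a2. The Cic-S-KO effect differed for 4, by 1.25 for Col5a3, 1.12 for Col7a1, 0.81 for Col27a1 and 0.71 for Col5a1.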

How the results depend on the processing

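Of 98 counts of called collagen genes under other settings, over 12 comparisons, 92 stayed within 1.5 times the reported count. In Cic-S-KO cortex the count of 7 became 4 with a replicate block, 3 with only the compared groups in the fit and 4 in cortex libraries low in choroid plexus markers. In Cic-L-KO cortex those libraries gave 13 in place of 20. In Cic-S-KO cerebellum the replicate block gave 3 in place of 6. For the Cic-S-KO region difference, DESeq2 gave 7 in place of 4. In counts simulated for the Cic-L-KO region difference, 10.7% of DESeq2 calls were false, against 3.54% of edgeR calls. The Cic-S-KO region difference was not simulated, so these shares do not say which of its calls are false. The cause of these changes in count was not tested, and the sets low in choroid plexus markers also hold fewer libraries. Over 200 log2 fold changes of single genes (every called collagen gene, Col2a1, Col9a3, Col1a1 and Col1a2 in cortex, and the called pathway genes named), 1608 values under other settings held 62 lost and 3 gained calls, 17 of the lost ones without the low-count filter and 23 in cortex libraries low in choroid plexus markers, and 8 reversals. No call changed with RLE size factors. Reversals were counted apart from gained calls and concern genes not called in the reported fit. In Cic-L-KO cortex, Col1a1 became -0.16 in the libraries low in those markers, Col1a2 -0.30 there, -0.028 with the markers as a covariate and -0.00197 with a replicate block, and Col9a3 -0.31 and -0.11 in the same libraries and with that covariate. The Col9a3 difference between the knockouts in cortex became 0.76 and 0.64 there. Both values were called (adjusted p = 3.05e-05 and 5.94e-04) and are not among the gained calls counted above. The replicate block ended the calls of Col27a1, Col7a1 and Col12a1 in Cic-S-KO cerebellum (adjusted p = 0.057, 0.0751 and 0.0701), and of 6 other values. Deviations of same-numbered libraries from their group means correlated at 0.152 to 0.257 between cortex and cerebellum in Cic-S-KO, and at 0.0504 to 0.238 in WT. For Cic-S-KO lung the correlations were 0.0112 to 0.252 with WT and 0.00603 to 0.261 with Cic-L-KO. Each of the other pairings of groups held a negative correlation. What same-numbered libraries have in common is not stated in the labels. The numbers used here and in the block are replicate numbers. In brain, most Cic-S-KO replicates carry a library number other than their replicate number, while in WT and Cic-L-KO both agree. The block therefore joined those Cic-S-KO libraries with WT and Cic-L-KO libraries of another library number. The 2 settings about choroid plexus markers and the one without Cic-S-KO lung replicate 5 were chosen after seeing the data. Scarce chains such as Col2a1 in cortex, with a median of 20 counts in WT, are limited by depth.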
